A study of Hordeum vulgare with 18 samples.

Results

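The 100 most abundant leaf transcripts of 3 barley genotypes were the 100 genes with the highest mean CPM over 18 RNA-seq libraries, out of 43050 gene rows. CPM is the number of sense-strand reads of a gene per 1000000 sense-strand reads on all genes of the library, and the members were chosen by this level. All 100 passed the filter on low counts that left 19021 genes for testing, and a pair of gene IDs set aside beforehand did not fall among the first 100. A contrast between groups was not part of the choice, although a gene that was high in one genotype alone could still enter through it.

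Seedling leaves were compared under low nitrate supply (LN, 0.5 mM) and high nitrate supply (HN, 5 mM). M4 is the Moroccan variety Laanaceur, M5 is Oussama, also from Morocco, and GP is Golden Promise, a spring barley from Europe. Each of the groups M4 LN, M4 HN, M5 LN, M5 HN, GP LN and GP HN had 3 libraries, each from the leaves of 1 or 2 plants, aged 14 days per the study's methods. Replicates 1 and 2 were harvested in November and replicates 3 and 4 in the following March and April where the labels hold a date, which left 7 spring and 10 autumn libraries and GP HN replicate 1 with no date. The labels of all 17 dated libraries give planting on 26 October, which gives an age of 14 days for the harvests of 9 November and a higher one for those of 16 November, 22 March and 12 April, and the labels state that age for GP HN replicate 1 alone. Season, plant age and a wrong planting date cannot be told apart. The labels call the tissue aerial, and the methods call it leaf. M4 HN replicate 4 carries HN in its title and 0.5 mM in its treatment label, and it was kept as HN. The replicates were numbered 1 to 4, and M4 LN held 1, 3 and 4, M4 HN and GP HN 1, 2 and 4, and M5 LN, M5 HN and GP LN 1, 2 and 3.

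Leaf cells of cereals are filled with chloroplasts, and nuclear genes for light capture and carbon fixation usually rank among the most transcribed genes of a green leaf. They include the small subunit of Rubisco, the enzyme that fixes CO2, and the chlorophyll-binding proteins of the light-harvesting antennae. Much of the nitrogen of a leaf is bound in such proteins, which is why they are of interest under nitrate limitation. Libraries made from polyadenylated RNA read mainly nuclear transcripts. None of these roles is assigned to a member here, since the IDs of this annotation match 0 of the 58438 entries in the gene table used here, and 0 of the 54 IDs named in the study fell among the members. The leaf label was therefore not checked against marker genes either. The members are described by ID, in which the digit after HORVU stands for the chromosome and 0 for an unplaced position.

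Counted in units of 1000000 reads, a library held between 15.3 and 29.1 (median 24.98), of which 11.8 to 22.3 lay on genes (median 19.2). Members were read deeply, with a mean of 18246 counts per library or more for each of them. 2 GP libraries held transcripts of another genotype. In GP HN replicate 1, 16 of 16 transcripts otherwise found in M4 alone were counted, at a median of 14.9% of their M4 level. In GP LN replicate 1, 17 of 20 transcripts otherwise found in M5 alone were counted, at a median of 49.9% of their M5 level. The values without these 2 libraries are given below for the read shares, the counts of calls, the medians and the called members that rest on GP.

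The members took 20.8 to 27.8% of all gene reads, with a median of 25.3%. Their share was 26.0, 26.5 and 27.3% in M4 LN (mean 26.6% ± 0.659, SD, n = 3) and 25.3, 25.4 and 24.7% in M4 HN (25.1% ± 0.355). It was 20.8, 23.5 and 25.6% in M5 LN (23.3% ± 2.41) and 24.4, 26.7 and 27.8% in M5 HN (26.3% ± 1.73). It was 24.95, 25.7 and 23.8% in GP LN (24.8% ± 0.947) and 24.6, 24.8 and 27.5% in GP HN (25.6% ± 1.61). M5 LN replicate 1 was the lowest of the 18 libraries and M5 HN replicate 3 the highest. The first member alone took 1.19 to 2.02% of the gene reads, the first 10 members 5.83 to 9.27% and the first 50 members 15.2 to 21.5%. The remaining reads were spread over many genes, with 610 to 945 genes needed to reach 50% of the gene reads of a library.

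None of the 5 comparisons of the share passed its test. LN minus HN came to -0.785 percentage points averaged over genotypes (exact two-sided permutation within genotypes, p = 0.354, adjusted over 5 comparisons 0.481). M4 minus GP came to 0.621 points (exact p = 0.375, adjusted 0.481), M5 minus GP to -0.422 (exact p = 0.67, adjusted 0.67) and M4 minus M5 to 1.04 (exact p = 0.385, adjusted 0.481). Without GP HN replicate 4 the M4 minus GP difference was 1.09 points (exact permutation p = 0.015), the one library whose removal brought a p under 0.05. With each library left out in turn LN minus HN ran from -1.17 to -0.371 points, M4 minus GP from 0.368 to 1.09 and M4 minus M5 from 0.422 (without M5 LN replicate 1) to 1.63 (without M5 LN replicate 3), with 0.568 without M5 HN replicate 1. M5 minus GP ran from -1.01 (without M5 LN replicate 3) to 0.199 (without M5 LN replicate 1), and it also turned positive without M5 HN replicate 1 (0.0531) or GP HN replicate 4 (0.0433), so that its direction rests on single libraries. LN minus HN without both GP replicate 1 libraries was -0.977 points (exact permutation p = 0.298), M4 minus GP 0.407 (exact p = 0.62) and M5 minus GP -0.637 (exact p = 0.57). Spring libraries averaged 26.2% ± 1.52 (n = 7) and autumn libraries 24.7% ± 1.64 (n = 10), a difference of 1.2 points within groups (exact permutation p = 0.148, adjusted 0.481). With each library left out this difference ran from 0.741 to 1.74 points, and plant age per the planting date moves with it.

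Within genotypes the LN and HN libraries lay differently. All 3 M4 LN libraries lay above all 3 M4 HN libraries, by 1.48 points on average, and with 3 against 3 libraries an exact permutation test cannot go below p = 0.1, which was its value. In autumn the M4 LN share was 26.0% against 25.3 and 25.4% in M4 HN, and in spring 26.5 and 27.3% against 24.7%. That last library is M4 HN replicate 4, whose treatment label reads 0.5 mM. M5 LN lay -2.99 points from M5 HN (exact permutation p = 0.2), with 20.8 and 23.5% in M5 LN against 24.4 and 26.7% in M5 HN in autumn and 25.6% against 27.8% in spring. GP LN lay -0.843 points from GP HN (exact permutation p = 0.7), where the groups overlapped.

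The shares were also compared within pairs of libraries with the same replicate number, a test chosen after seeing the data. M5 LN lay below M5 HN in 3 of 3 pairs, by -3.57, -3.25 and -2.14 points, with a mean of -2.99 ± 0.753 (SD), a smaller spread than between the libraries of either M5 group. With 3 pairs an exact test of sign changes cannot go below p = 0.25, which was its value. M4 LN lay above M4 HN in 2 of 2 pairs (0.752 and 2.59 points) and GP LN above GP HN in 2 of 2 pairs (0.308 and 0.88 points). The larger M4 difference is that of replicate 4, whose HN library has 0.5 mM in its treatment label. Over all 7 pairs LN minus HN averaged -0.633 points (exact p = 0.531), with 4 pairs above 0 and 3 below.

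**Figure D1:**
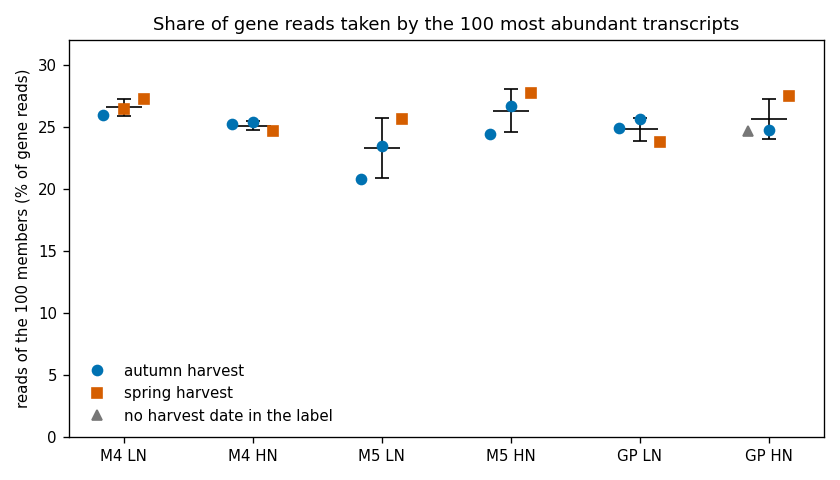
Share of gene reads, in percent, taken by the 100 members in each library, with groups on the horizontal axis, the mean as a bar and the SD as whiskers (n = 3 libraries each). Circles are autumn harvests, squares spring harvests and the triangle the library with no date, and all libraries lie between 20.8 and 27.8%.

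The order at the top hardly moved. HORVU4Hr1G027260 was the most abundant gene in all 18 libraries, with a mean of 15939 CPM and a range of 11918 to 20216 CPM. It was at 18775, 14169 and 18460 CPM in M4 LN and 18152, 16487 and 17358 CPM in M4 HN. It was at 11918, 14695 and 14555 CPM in M5 LN and 15282, 16189 and 20216 CPM in M5 HN. It was at 13737, 14553 and 13911 CPM in GP LN and 16026, 14213 and 18215 CPM in GP HN. The M5 LN libraries all lay below the M5 HN libraries, and in the other genotypes the groups overlapped. CPM takes no account of gene length, so that the order is one of read numbers and not of transcript numbers.

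HORVU3Hr1G057090 came next at 9769 CPM (6610 to 12500), and it ranked between 2 and 4 in every library. HORVU5Hr1G082420 at 7891 CPM (5990 to 9324) also ranked between 2 and 4, and HORVU7Hr1G058120 at 7669 CPM (5333 to 9232) between 2 and 6. These 3 genes traded places between libraries, and their ranges overlapped. HORVU2Hr1G057700 (6457 CPM), HORVU1Hr1G035720 (6426 CPM) and HORVU4Hr1G019570 (6367 CPM) had nearly equal means, and none of them ranked below 9. HORVU5Hr1G051010 (6021 CPM), HORVU4Hr1G015260 (5820 CPM) and HORVU2Hr1G010690 (5798 CPM) closed the first 10, with lowest ranks of 15, 12 and 18. All of the first 10 stayed within the first 20 of each of the 18 libraries.

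Further down the order was looser. Each library's own first 100 genes held 89 to 95 of the members, 67 members were in the first 100 of all 18 libraries, and 139 genes were in the first 100 of at least 1 library. Within the first 200 of every library stood 96 members, and 4 fell below it at least once. These were HORVU1Hr1G078380 and HORVU6Hr1G016890, both low in M5, HORVU1Hr1G045590 and HORVU3Hr1G116060. At the border of the choice the members HORVU5Hr1G002040, HORVU4Hr1G033200 and HORVU1Hr1G090990 averaged 1004, 999 and 998 CPM. Just outside it HORVU1Hr1G021720, HORVU1Hr1G041250 and HORVU7Hr1G040370 averaged 987, 984 and 983 CPM, so that the border lies in a continuous range of levels. The rank correlation of the 100 members between 2 libraries ran from 0.758 to 0.971, with a median of 0.945 between libraries of the same group and 0.882 between libraries of different groups. It runs across genes, which are not independent replicates.

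**Figure D2:**
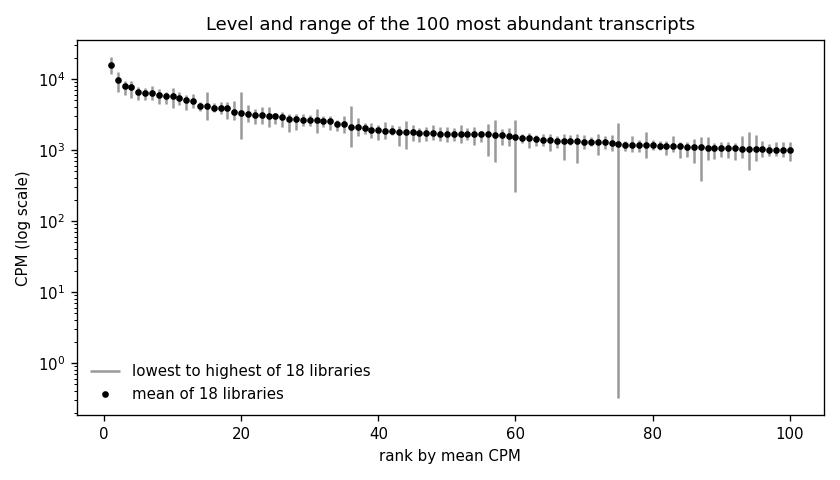
CPM of the 100 members on a log axis against their rank by mean CPM, with points for the mean of the 18 libraries and lines from the lowest to the highest library. Means decline from 15939 CPM to 998 CPM, and one line reaches down to 0.316 CPM, that of HORVU1Hr1G078380.

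The members varied little between libraries. The highest library was less than 2 times the lowest for 81 members, 2 to 4 times for 15 and over 4 times for 4, with a median of 1.66. Within groups the SD of log2(CPM + 0.5) had a median of 0.166 over the members (0.0965 to 0.898), against 0.254 over the 19021 genes tested. Genes of the ranks following the members down to 1000 had a median of 0.187 and genes under 10 CPM one of 0.328, so that among these sets of genes the spread was smaller at higher levels. The share of members below the median spread of all genes tested was 85%. Counting error falls with depth, and its part in these differences was not tested.

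The steadiest members were HORVU6Hr1G000620 (SD 0.0965, 1312 to 2067 CPM), HORVU5Hr1G039850 (SD 0.0993, 1004 to 1336 CPM) and HORVU5Hr1G002040 (SD 0.10, 817 to 1287 CPM). They lay at ranks 46, 81 and 98, so that the steadiest were not the most abundant. This spread is within groups, and HORVU5Hr1G002040 was lower in M4 (926 CPM) and M5 (924 CPM) than in GP (1163 CPM). Both differences were called in edgeR (log2 FC -0.30 and -0.32, adjusted p = 0.0066 and 0.0059). The least steady was HORVU1Hr1G078380 (SD 0.898), whose spread came with its few reads in M5. HORVU2Hr1G022920 (SD 0.501) ranged from 669 CPM in M4 LN replicate 3 to 2610 CPM in M4 HN replicate 1. HORVU1Hr1G045590 (SD 0.386) ranged from 366 CPM in GP HN replicate 2 to 1543 CPM in M4 LN replicate 4. Some of the deviations were shared, since 23 of 100 members lay above their group mean in M5 LN replicate 1 and 83 in M5 LN replicate 3.

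**Figure D3:**
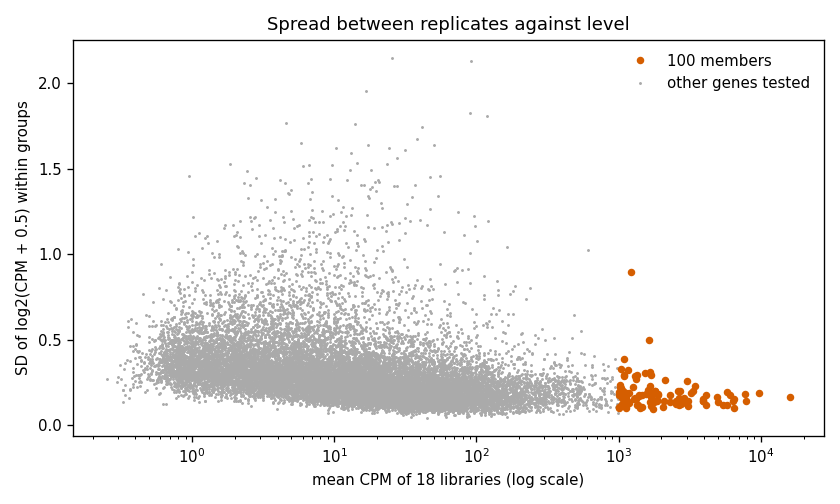
SD of log2(CPM + 0.5) within groups against mean CPM on a log axis, for the 100 members and for the other genes tested. The members, at the right, have a median SD of 0.166, against 0.254 over all genes tested, and HORVU1Hr1G078380 stands apart at 0.898.

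The members' IDs were spread over all 7 chromosomes. Chromosome 2 carried 25 of 100 members and 16.1% of all genes tested, while chromosomes 1 and 3 carried 9 members each and 12.5 and 14.9% of the genes tested. Chromosomes 4, 5, 6 and 7 carried 12, 17, 12 and 13 members, and 3 members were unplaced. 4 pairs of members had neighbouring IDs, with numbers at most 100 apart. Antisense reads were few, with a median of 0.0564% of the sense reads and under 1% for 97 members. For 3 members (HORVU7Hr1G002210, HORVU3Hr1G075870 and HORVU5Hr1G071920) the count without regard to strand was under 50% of the sense count, so that their level depends on the strand-specific count. Ranked without regard to strand, 97 of the 100 members stayed among the first 100.

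Most members differed little between genotypes, and a few differed strongly. The ratio of the highest to the lowest genotype mean had a median of 1.1, was under 1.2 for 76 members and over 2 for 4. In edgeR's quasi-likelihood test, averaged over LN and HN and with a Benjamini-Hochberg adjusted p under 0.05 over all genes tested, 4 members rose and 4 fell in M4 against GP, where 8.19% of all genes were called higher and 7.7% lower. In M5 against GP 1 member rose and 6 fell, where 5.41% of all genes were called higher and 7.08% lower. In M4 against M5 5 members rose and 3 fell, where 8.6% of all genes were called higher and 6.47% lower. In each comparison and direction of this fit of all libraries the share of members called lay below that of all genes. In all, 13 members were called in at least 1 genotype comparison, 1 of them in all 3, 8 in 2 and 4 in 1, and the comparisons share groups.

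HORVU1Hr1G078380 (chromosome 1) was almost missing from M5. It was at 1793, 2190 and 2362 CPM in M4 LN and 2041, 1754 and 1773 CPM in M4 HN. It was at 3.19, 9.22 and 0.724 CPM in M5 LN and 4.33, 3.91 and 0.316 CPM in M5 HN, which are 4 to 109 counts per library. It was at 864, 1875 and 1931 CPM in GP LN and 1629, 1711 and 2059 CPM in GP HN. No M5 library came near any other library. The fitted log2 FC was -8.93 (SE 0.534, edgeR adjusted p = 8.6e-07) in M5 against GP and 9.25 (SE 0.546, adjusted p = 1.7e-07) in M4 against M5, while M4 against GP was not called (0.31, SE 0.373, adjusted p = 0.639). Its neighbour HORVU1Hr1G078350 averaged 3830 CPM in M4, 3796 CPM in M5 and 4053 CPM in GP.

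HORVU6Hr1G016890 and HORVU6Hr1G016940 (chromosome 6) had neighbouring IDs and opposite differences. HORVU6Hr1G016890 averaged 2175 ± 170 CPM in M4, 298 ± 69.6 CPM in M5 and 2124 ± 526 CPM in GP (SD, n = 6 libraries each), and its highest M5 library (421 CPM) lay below its lowest other library (1128 CPM). Its log2 FC was -2.88 (SE 0.147, edgeR adjusted p = 1.8e-07) in M5 against GP and 2.95 (SE 0.152, adjusted p = 5.1e-08) in M4 against M5. HORVU6Hr1G016940 averaged 1411 ± 199 CPM in M4, 3148 ± 576 CPM in M5 and 1758 ± 349 CPM in GP. It rose by a log2 FC of 0.82 (SE 0.154, adjusted p = 0.0031) in M5 against GP and fell by 1.16 on the log2 scale (SE 0.164, adjusted p = 3.1e-04) in M4 against M5, again without overlap. Summed, the pair came to 3586 ± 364 CPM in M4, 3447 ± 644 CPM in M5 and 3882 ± 412 CPM in GP, a ratio of 1.13 between the highest and the lowest mean. Whether reads of one gene were counted for the other was not tested, and reads that mapped to several places were counted for no gene.

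HORVU5Hr1G109250 (chromosome 5) differed in all 3 comparisons. It was at 1413, 1884 and 1629 CPM in M4 LN and 1771, 1494 and 1577 CPM in M4 HN. It was at 3498, 2976 and 3933 CPM in M5 LN and 2811, 2579 and 2855 CPM in M5 HN. It was at 4824, 4444 and 6582 CPM in GP LN and 4584, 4763 and 6030 CPM in GP HN. The 3 genotypes thus lay in 3 ranges that did not overlap, with M4 lowest and GP highest. Its log2 FC was -1.68 (SE 0.0858, edgeR adjusted p = 4.6e-08) in M4 against GP, -0.77 (SE 0.0850, adjusted p = 6.1e-05) in M5 against GP and -0.91 (SE 0.0903, adjusted p = 1.8e-05) in M4 against M5. Its neighbour HORVU5Hr1G109260 averaged 1743 ± 180 CPM in M4, 2355 ± 265 CPM in M5 and 2165 ± 187 CPM in GP, and M4 was lower than both in the test.

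**Figure D4:**
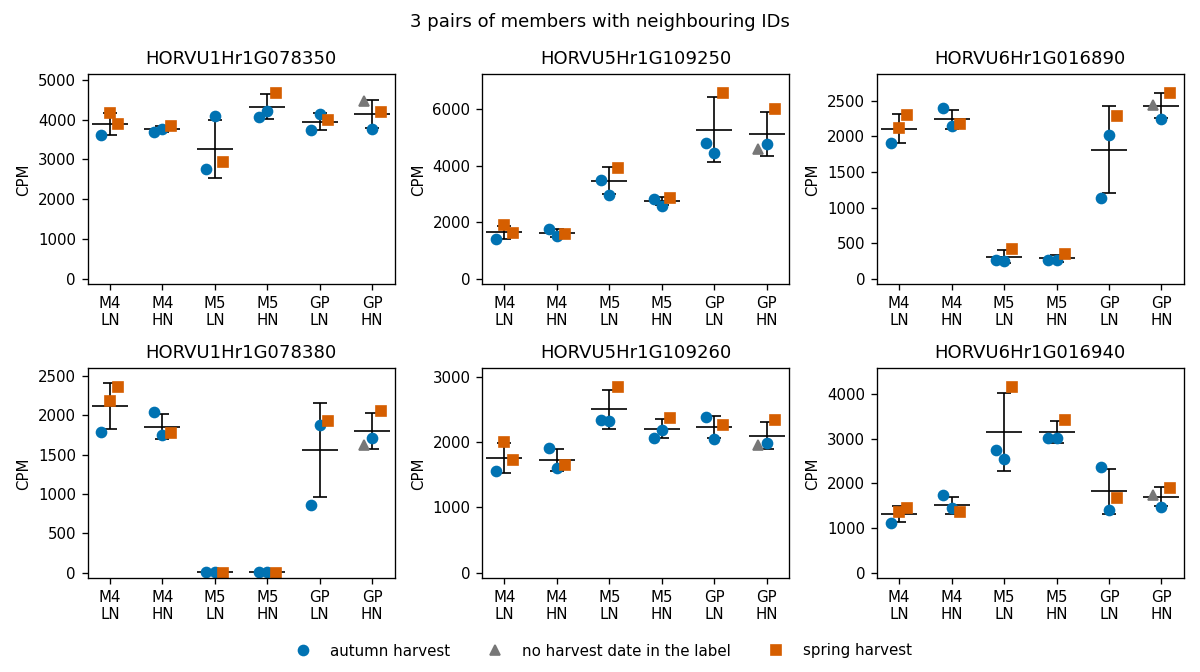
CPM per library of 3 pairs of members with neighbouring IDs, with the groups on the horizontal axis, bars for the mean and whiskers for the SD (n = 3 libraries each). HORVU1Hr1G078380 lies at 9.22 CPM or less in M5, HORVU6Hr1G016890 at 421 CPM or less in M5, and HORVU5Hr1G109250 in 3 separate ranges.

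The other calls were smaller. HORVU4Hr1G082700 rose by a log2 FC of 0.42 (SE 0.126, edgeR adjusted p = 0.040) in M4 against GP, with 1833 to 2573 CPM in M4 against 1148 to 2021 CPM in GP. HORVU4Hr1G082040 rose by 0.39 (SE 0.107, adjusted p = 0.027), with 1455 to 1634 CPM in M4 against 1027 to 1393 CPM in GP. HORVU0Hr1G004830 fell by 0.38 on the log2 scale (SE 0.110, adjusted p = 0.034), with 3458 to 4436 CPM in M4 against 4114 to 6627 CPM in GP. Its larger call was in M5 against GP, with a log2 FC of -0.56 (SE 0.112, edgeR adjusted p = 0.0049). The M4 and GP libraries overlapped for the first and the last of these genes. In M4 against GP these genes were called in 15, 20 and 19 of 27 settings, in that order. Their log2 FC in M4 against GP without both GP replicate 1 libraries was 0.51 (edgeR adjusted p = 0.049), 0.40 (adjusted p = 0.080) and -0.42 (adjusted p = 0.070). This ends the M4 against GP call of HORVU4Hr1G082040 and HORVU0Hr1G004830. The number of members called in M4 against GP was 2 without GP HN replicate 2 or M4 HN replicate 2, and 4 without GP LN replicate 2, GP LN replicate 3, M4 HN replicate 1, M4 LN replicate 1 or M4 LN replicate 4. It was 5 without GP HN replicate 1, GP HN replicate 4 or M5 HN replicate 2. These counts are given without the share of all genes in the same fits. Further calls are given for the fit of all 18 libraries only. HORVU7Hr1G000900 was higher in M4 than in GP (log2 FC 0.30, edgeR adjusted p = 0.026) and M5 (0.37, adjusted p = 0.012). HORVU2Hr1G111640 and HORVU4Hr1G082700 were higher in M4 than in M5 (0.44 and 0.43, adjusted p = 0.010 and 0.047). HORVU3Hr1G085270 was higher in M4 than in GP (0.36, adjusted p = 0.044), and HORVU5Hr1G100140 lower in M5 than in GP (-0.32, adjusted p = 0.042).

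GP LN replicate 1, the library with M5 transcripts, stood between GP and M5 for HORVU1Hr1G078380, HORVU6Hr1G016890 and HORVU6Hr1G016940. HORVU1Hr1G078380 was at 864 CPM in it, 45.6% of the mean of the 4 GP libraries other than replicate 1 (1894 ± 144 CPM), and HORVU6Hr1G016890 at 1128 CPM, 49.2% of theirs (2295 ± 243 CPM). HORVU6Hr1G016940, which is higher in M5, was at 2374 CPM, 147% of theirs (1611 ± 218 CPM). HORVU5Hr1G109250 was at 4824 CPM, 88.4% of theirs (5455 ± 1017 CPM), and HORVU5Hr1G109260 at 2381 CPM, 110% of theirs (2162 ± 170 CPM). Without both GP replicate 1 libraries 9 members were called in M4 against GP (7 higher, 2 lower), 7 in M5 against GP (2 higher, 5 lower) and 7 in M4 against M5 (4 higher, 3 lower). The shares of all genes called without these libraries are not given here, so these counts are not set against them. In M5 against GP the log2 FC was then -9.12 for HORVU1Hr1G078380, -2.94 for HORVU6Hr1G016890 and 0.98 for HORVU6Hr1G016940, and in M4 against GP it was -1.73 for HORVU5Hr1G109250, each still called.

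Nitrate supply left the members without a call in edgeR. In LN against HN 0 of 100 members passed in any of the genotypes GP, M4 and M5 or in their average, where 0, 0, 0.0631 and 0.0315% of all genes were called. At an unadjusted p under 0.05, 4 members were higher and 2 lower in GP, where 2.72% of all genes were higher and 2.78% lower. In M4 8 were higher and 2 lower, where 4.01% of all genes were higher and 3.79% lower. In the average 2 were higher and 22 lower, where 5.96% of all genes were higher and 6.8% lower. With each library left out in turn 2 to 13 members passed the unadjusted threshold in GP and 1 to 15 in M4, so that these counts changed with single libraries. Without both GP replicate 1 libraries 1 member did in GP and 16 in the average, and 0 were called in either. The shares of all genes in the fits with libraries left out are not given here, so these counts are not set against them. DESeq2 called 0 members in GP, 0 in M4 and 5 in the average, all lower, where it called 0.147, 0.11 and 1.51% of all genes. The median standard error of a member's log2 FC was 0.156 in GP and 0.153 in M4, against 0.231 and 0.227 over all genes tested, so that members were measured more finely than other genes.

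In the fit of all libraries the members leaned furthest to one side in M5. The median log2 FC in LN against HN was -0.24 over the members in M5 and 0.02 over all genes tested, and 17 of 100 members had a positive value. At an unadjusted p under 0.05, 3 members were higher and 38 lower, where 2.82% of all genes were higher and 4.56% lower. DESeq2 called 15 members, all lower, where it called 1.04% of all genes. The median over the members was -0.05 in GP and 0.08 in M4, with 35 and 69 positive values and a median of 0.01 and -0.01 over all genes tested. With each library left out in turn the GP median ran from -0.15 (without GP LN replicate 1) to 0.01 (without GP LN replicate 3), with 20 to 53 positive values, and the M4 median from 0.04 (without M4 HN replicate 4) to 0.12, with 55 to 78 positive values. Without both GP replicate 1 libraries the GP median was -0.12, with 24 positive values. The M5 median ran from -0.38 to -0.16 with a library left out, with 15 to 31 positive values. These counts overlap those of GP, so that a lean to lower values is not particular to M5. Scaling by library totals without TMM moved the median of all genes in M5 by 0.13, to 0.14, and the members' median to -0.12. This is -0.26 relative to all genes with either scaling. A change of scaling shifts all genes nearly alike, so that this gap could hardly have changed.

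Single libraries bore on the M5 values, which are given here without the share of all genes in the same fit. Without M5 LN replicate 1, which had the lowest share, 21 members had an unadjusted p under 0.05 and their median was -0.16. Without M5 HN replicate 3, 27 members did, with a median of -0.23. Without M5 LN replicate 3, 54 members did, with a median of -0.38, and 2 members were called, HORVU7Hr1G002210 and HORVU7Hr1G013600. These were named after their values were seen. HORVU7Hr1G013600 was at 1957, 1902 and 2446 CPM in M5 LN against 2750, 3007 and 2846 CPM in M5 HN, and HORVU7Hr1G002210 at 731, 827 and 914 CPM in M5 LN against 1113, 1246 and 1193 CPM in M5 HN.

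The lowest fitted values in M5 belonged to HORVU4Hr1G082700 and HORVU3Hr1G057090. HORVU4Hr1G082700 was at 1031, 1327 and 1431 CPM in M5 LN against 1810, 1909 and 2114 CPM in M5 HN, without overlap (log2 FC -0.75, SE 0.174, edgeR adjusted p = 0.238, DESeq2 adjusted p = 0.0066). HORVU3Hr1G057090, the second most abundant gene, was at 6610, 7201 and 9139 CPM in M5 LN against 10240, 11497 and 12500 CPM in M5 HN, also without overlap (log2 FC -0.70, SE 0.180, edgeR adjusted p = 0.280, DESeq2 adjusted p = 0.019). In the other genotypes the LN and HN libraries of HORVU3Hr1G057090 overlapped in M4 (11442, 8060 and 11925 CPM against 10007, 10527 and 9625 CPM) and did not in GP (8817, 9486 and 8101 CPM against 9563, 9806 and 11302 CPM). Among the highest fitted values in M5, HORVU1Hr1G045590 had a log2 FC of 0.60 (SE 0.269, edgeR adjusted p = 0.659), and HORVU1Hr1G078380 one of 0.30 (SE 0.666) that rests on few reads.

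HORVU1Hr1G045590 had the highest fitted value in GP and in the average. It was at 1231, 1307 and 1262 CPM in GP LN against 648, 366 and 1191 CPM in GP HN (log2 FC 0.99, SE 0.296, edgeR adjusted p = 0.833). It was at 1002, 1014 and 1407 CPM in M5 LN against 554, 768 and 725 CPM in M5 HN, and at 1338, 1232 and 1543 CPM in M4 LN against 1346, 1275 and 1328 CPM in M4 HN. The LN libraries lay above the HN libraries in GP and M5 and overlapped with them in M4. The average log2 FC was 0.53 (SE 0.163, edgeR adjusted p = 0.258). A fit of the GP libraries alone called it in GP (log2 FC 1.40, edgeR adjusted p = 0.019), the one setting of 27 that did. With replicate number as a term, GP LN replicate 3 and GP HN replicate 4 have no partner in that fit. The value thus rests on the pairs of replicates 1 and 2 (1231 against 648 and 1307 against 366 CPM). The first of these pairs consists of the libraries that held transcripts of another genotype.

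HORVU5Hr1G005980 had the lowest value in the average (log2 FC -0.53, SE 0.112, edgeR adjusted p = 0.153, DESeq2 adjusted p = 0.0032). It was at 797, 800 and 1223 CPM in M4 LN against 1185, 1435 and 1649 CPM in M4 HN, at 722, 1035 and 724 CPM in M5 LN against 1161, 1326 and 1164 CPM in M5 HN, and at 759, 698 and 789 CPM in GP LN against 1162, 1028 and 860 CPM in GP HN. The LN libraries lay below the HN libraries in M5 and GP and overlapped with them in M4, through M4 LN replicate 4. HORVU2Hr1G022920 came next in the average at -0.51 (SE 0.223, edgeR adjusted p = 0.372) and was among the lowest in GP (-0.59) and in M4 (-0.53), with overlapping groups each time. Beside HORVU5Hr1G005980 (-0.51), the further extreme values in M4 were those of HORVU3Hr1G115990 (0.65, SE 0.258) and its neighbour by ID HORVU3Hr1G116060 (0.61, SE 0.267), highest in M4 LN replicate 3. In GP they were those of HORVU4Hr1G074810 (0.59, SE 0.236) and HORVU7Hr1G070870 (-0.58, SE 0.266). None of these was called. The values in GP without both replicate 1 libraries were 1.05 for HORVU1Hr1G045590, -0.13 for HORVU2Hr1G022920, 0.65 for HORVU4Hr1G074810 and -0.27 for HORVU7Hr1G070870.

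The difference of the LN response between genotypes was tested directly. In edgeR 0 members were called for M4 minus GP, for M5 minus GP and for M4 minus M5, where 0, 0 and 0.00526% of all genes were called. For M4 minus GP 1 member was higher and 1 lower at an unadjusted p under 0.05, where 1.26% of all genes were higher and 1.11% lower, and DESeq2 called 0 members and 0.021% of all genes. For M5 minus GP 2 were higher and 8 lower, where 1.7% of all genes were higher and 2.34% lower, and DESeq2 called 0 members and 0.0368% of all genes. The count for M5 minus GP rested on single libraries, with 30 members at an unadjusted p under 0.05 without M5 LN replicate 3, 23 without GP LN replicate 3, 5 without M4 LN replicate 4, 6 without M5 LN replicate 2 and 0 to 3 without GP HN replicate 2, GP LN replicate 1, GP LN replicate 2, M5 HN replicate 2, M5 HN replicate 3 or M5 LN replicate 1. The share of all genes in those fits is not given here.

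For M4 minus M5 the members lay to one side. At an unadjusted p under 0.05, 36 members were higher and 0 lower, where 3.79% of all genes were higher and 2.9% lower. The median difference was 0.39 over the members and -0.02 over all genes tested, with 83 of 100 members positive. It was 0.29 to 0.51 with any library left out, and 23 members passed the unadjusted threshold without M4 HN replicate 4 or M5 HN replicate 2. The share of all genes in those fits is not given here. Library totals in place of TMM moved the median of all genes by -0.16 and that of the members to 0.23. This is 0.42 relative to all genes, against 0.41 with TMM, a gap that a change of scaling can hardly alter. DESeq2 called 1 member, HORVU7Hr1G000900, where it called 0.326% of all genes. That gene, named after its values were seen, was at 3304, 4091 and 3516 CPM in M4 LN against 3175, 3507 and 3282 CPM in M4 HN, and at 2308, 2416 and 2726 CPM in M5 LN against 2881, 3374 and 3401 CPM in M5 HN.

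The highest values for M4 minus M5 belonged to members of the first 10. HORVU2Hr1G010690 had 0.81 (SE 0.262, edgeR adjusted p = 0.66) and HORVU3Hr1G057090 0.79 (SE 0.258, adjusted p = 0.66). HORVU2Hr1G010690 was at 6267, 5862 and 7521 CPM in M4 LN against 6201, 6945 and 5037 CPM in M4 HN, and at 4253, 4752 and 5448 CPM in M5 LN against 6369, 7078 and 6955 CPM in M5 HN. The groups overlapped in M4 and did not in M5. The lowest values were those of HORVU1Hr1G045590 (-0.61, SE 0.384) and HORVU7Hr1G006490 (-0.33, SE 0.200). For M4 minus GP the values ran from -0.996 (HORVU1Hr1G045590) to 0.58 (HORVU7Hr1G049370), and for M5 minus GP from -0.61 (HORVU3Hr1G115990) to 0.54 (HORVU6Hr1G016890, in which GP LN replicate 1 stood apart). These 4 values without both GP replicate 1 libraries were -1.05, 0.83, -0.27 and 0.26.

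No member passed the threshold between seasons. In spring against autumn harvests, which by the planting date differ in plant age too, with the 6 groups as terms over 17 dated libraries, 0 of 100 members were called, where 0% of 18975 genes were called. At an unadjusted p under 0.05, 9 members were higher and 0 lower, where 3.64% of all genes were higher and 1.41% lower, and DESeq2 called 0 members and 0.0738% of all genes. The median log2 FC was 0.11 over the members and -0.01 over all genes tested, and 90 members were positive. With library totals in place of TMM the medians were 0.05 and -0.06, and 76 members were positive. The unadjusted count was 23 without GP LN replicate 3, 3 without M5 HN replicate 3, 4 without M5 LN replicate 3 and 5 without GP HN replicate 2, GP HN replicate 4 or M5 HN replicate 1. These counts too are given without the share of all genes in the same fits.

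HORVU2Hr1G041280 had the highest seasonal value (log2 FC 0.42, SE 0.115, edgeR adjusted p = 0.966), with 1730 to 2215 CPM in spring against 1266 to 1897 CPM in autumn. In M4 it was at 2092, 1952 and 2068 CPM in spring against 1641, 1578 and 1350 CPM in autumn. In GP it was at 1730 and 2215 CPM in spring against 1266, 1579 and 1842 CPM in autumn, and in M5 at 1793 and 1961 CPM in spring against 1294, 1897, 1342 and 1452 CPM in autumn. The seasons did not overlap in M4 and overlapped in GP and M5. HORVU6Hr1G016890 came next at 0.41 (SE 0.122), and the lowest values were those of HORVU1Hr1G078380 (-0.24, SE 0.382) and HORVU3Hr1G115990 (-0.17, SE 0.151).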

How the data were processed

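Leaf RNA was sequenced in 18 libraries, 3 in each of 6 groups taken from the sample titles. The authors read stranded polyA libraries from one end for 75 bases. Reads were trimmed (Trimmomatic 0.36), cleared of ribosomal RNA (sortMeRNA 2.1), then aligned and counted per gene (STAR 2.7.3a) on the Morex reference IBSC_v2 with its release 48 annotation. Deposited were the raw counts of each gene, with no normalization by the authors. Sense-strand (reverse) counts were used. Reads that name no gene stayed out of library sizes and tests. They were multimapped (14.9 to 16.7% of a library), outside genes (5.05 to 5.92%), unmapped (1.66 to 2.53%) or ambiguous (0.0104% at most). Genes with near-identical copies are therefore uncertain.

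Counts were fitted in edgeR 4.0.16 (R 4.3.3, TMM, CPM above 1 in at least 3 libraries) with terms for group (6 levels) and replicate number, following the study's methods, and tested by quasi-likelihood with Benjamini-Hochberg adjustment over all genes. For season the terms were group and season. Each standard error is the absolute log2 FC divided by the root of the F statistic. Read shares were compared by exact two-sided permutation and, chosen after seeing the data, within pairs of the same replicate number by exact sign changes. Alternatives were DESeq2 1.42.0, RLE, library totals, the reads of the other genes as library size, no filter, either-strand counts, only the groups compared, no replicate term, and libraries left out. Counts of members with libraries left out are given without the share of all genes in the same fit. The code was tested on simulated counts.

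The replicate number is a term because the labels give it 1 harvest day. Deviations of same-numbered libraries of different groups had a median correlation of 0.0039 over 34 pairs, 8 above 0.1, and those of different numbers -0.0068 over 101 pairs. No replicates were copies of each other. The study's methods call the replicates independent biological ones.

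The members and lists were chosen with earlier results of these data known. Named were the first 10 members, the 2 highest and 2 lowest fitted values of each comparison (called members where there were any), the 3 smallest and 3 largest spreads, the 3 largest genotype ratios and the genes at the border. Further members called between genotypes were added outside these rules. Lists by gene function could not be formed, since the gene table in hand shared no ID.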

Additional observations from a re-analysis of the deposited data

Results flagged for a closer look

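Among the 31 members named by the rules above, 7 had a library that stood apart from the other 5 of its genotype, measured as its gap to the nearest library over the whole range on the log2(CPM + 0.5) scale (Dixon's ratio at the 95% level). The 6 libraries of a genotype mix LN and HN. A rate of 1 in 20 would give such a gap in 4.65 of the 93 groups tested (31 named members in 3 genotypes), where 7 were found. That rate is only a guide, since some of these members were named for large spreads or extreme values in the same data. Members also share deviations of single libraries, so that 7 against 4.65 decides nothing. The ratio was 0.841 for HORVU2Hr1G010690 in GP, where GP LN replicate 3 was low at 3938 CPM. It was 0.730 for HORVU1Hr1G078380 in GP, low at 864 CPM in GP LN replicate 1, and 0.695 for HORVU6Hr1G016890 in GP, low at 1128 CPM in the same library, which held transcripts of M5. It was 0.727 for HORVU5Hr1G002040 in M4, low at 817 CPM in M4 HN replicate 1, and 0.637 for HORVU7Hr1G049370 in M4, low at 719 CPM in M4 HN replicate 4. It was 0.650 for HORVU2Hr1G022920 in M4, low at 669 CPM in M4 LN replicate 3, and 0.672 for HORVU7Hr1G006490 in M5, low at 1362 CPM in M5 HN replicate 3. Each of these libraries was on the low side.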

How the results depend on the processing

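With DESeq2 the number of members called was 15 for LN against HN in M5, 5 for its average over genotypes, 14 for M4 against GP, 13 for M4 against M5 and 1 for the difference of the LN response between M4 and M5, against 0, 0, 8, 8 and 0 with edgeR. DESeq2 called 1.04, 1.51 and 0.326% of all genes in the first, second and last of these. For its genotype comparisons, and for the other settings below, the share of all genes is not given here. Those counts are therefore no result about the members as against other genes. With only the groups compared, 1 member was called for LN against HN in GP. In that fit replicate 3 occurs in GP LN alone and replicate 4 in GP HN alone, so that the call rests on the pairs of replicates 1 and 2. What else differed from the fit of all libraries was not tested. With each library left out in turn the count was 2 to 10 for M4 against GP, 6 to 8 for M5 against GP, 7 to 10 for M4 against M5, 0 to 2 for LN against HN in M5 and 0 for the other comparisons. The difference in read share was then 0.368 to 1.09 points for M4 minus GP, and that of M5 minus GP turned sign (-1.01 to 0.199). With a replicate block, chosen after seeing the data, the share differed by -0.633 points for LN minus HN, 0.42 for M4 minus GP, -0.561 for M5 minus GP and 1.37 for M4 minus M5, with exact sign-change p of 0.5 or more for each. Without the replicate block 9 members were called for M4 against GP, 7 for M5 against GP, 11 for M4 against M5 and 0 for each LN comparison, and the season contrast with a replicate block over 18 libraries called 0. No value changed sign past its threshold. Of the named genes HORVU4Hr1G082700, HORVU4Hr1G082040 and HORVU0Hr1G004830 lost their M4 against GP call in 12, 7 and 8 settings. The fits with only the groups compared were not run for the average and for season. Depth limits HORVU1Hr1G078380 alone among the members, with 4 to 109 counts in M5, since every other member had at least 2977 counts in each library.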
